A study of Mus musculus with 6 samples.

Results

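The nuclear-encoded subunits of oxidative phosphorylation were followed through 6 RNA-seq libraries of mouse bone-marrow-derived macrophages. The genes were taken by symbol alone: names beginning with Nduf and a subunit letter and number, Sdha to Sdhd, names beginning with Uqcr, Cox4 to Cox8 names and names beginning with Atp5, with pseudogene names dropped. Of 83 matching symbols, 80 reached at least 1 CPM (a count scaled to the library total) in at least 1 library, out of 11898 genes that did so and 16775 in the deposited tables. They comprise 36 genes of complex I, 4 of complex II, 8 of complex III, 15 of complex IV and 17 of complex V. Ndufa4 and Ndufa4l2, whose names place them in complex I, were counted with complex IV, where their proteins are known to sit. Atp5s is taken in by its name but is not a subunit of the synthase. Cycs, Cyc1, Ndufab1 and Usmg5 do the work of this machinery but fall outside the name rule and are given separately. The CPM limit falls between Cox7a1, at most 1.98 scaled CPM in any library, and Cox6b2, at most 0.792; Cox4i2 and Ndufa11b are also below it.

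The macrophages came from C57BL/6 bone marrow kept for 5 days in medium with M-CSF at 10 ng/ml, the factor under which marrow cells become macrophages, and were then treated for 24 hours. All 6 libraries come from cells that received IL4, the cytokine of alternative activation: 1 library with IL4 and no compound, and 1 each with IL4 and fatostatin, betulin, 25-HC, PF429424 or 1,10-Phen in addition. The labels give no dose, no sex or age, and do not say how many mice were pooled. Each treatment has 1 library, so no value here has a replicate check and each ratio compares 2 libraries rather than 2 conditions.

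Complexes I and II pass electrons from NADH and succinate to coenzyme Q, complex III passes them on to cytochrome c, and complex IV hands them to oxygen. Complexes I, III and IV pump protons across the inner mitochondrial membrane, and complex V, the ATP synthase, lets them back through and makes ATP. Complex I, III, IV and V also hold subunits made in the mitochondrion itself, while complex II is wholly encoded in the nucleus. IL4-treated macrophages are known to rely on oxidative phosphorylation, with the coactivator PGC-1beta among the factors tied to that state.

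Promoter sequence is shown first for 4 members. Ndufs8 and Ndufv1 had the lowest ratios of all members when the 1,10-Phen library was set against IL4 alone. Ndufv3 had the highest ratio of complex I in that comparison, and Cox6a1 carries the motif best known from this gene family. Each run holds the 250 bases before the start of the RefSeq gene model on GRCm38.p6, read 5′ to 3′ on the gene's strand. Capitals mark matches to the motifs named after the sequences.
Ndufs8, minus strand, chr19:3912775-3913024: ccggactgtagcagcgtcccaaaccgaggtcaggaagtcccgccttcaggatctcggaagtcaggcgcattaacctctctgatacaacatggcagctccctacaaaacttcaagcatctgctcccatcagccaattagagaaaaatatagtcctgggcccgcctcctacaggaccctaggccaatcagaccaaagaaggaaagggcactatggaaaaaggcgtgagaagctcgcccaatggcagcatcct
Ndufv1, minus strand, chr19:4012756-4013005: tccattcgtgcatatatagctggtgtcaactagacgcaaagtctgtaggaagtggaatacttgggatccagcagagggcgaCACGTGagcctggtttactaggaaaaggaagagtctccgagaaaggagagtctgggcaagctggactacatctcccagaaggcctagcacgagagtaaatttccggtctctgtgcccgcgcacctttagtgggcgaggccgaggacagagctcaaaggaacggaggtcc
Ndufv3, plus strand, chr17:31519865-31520114: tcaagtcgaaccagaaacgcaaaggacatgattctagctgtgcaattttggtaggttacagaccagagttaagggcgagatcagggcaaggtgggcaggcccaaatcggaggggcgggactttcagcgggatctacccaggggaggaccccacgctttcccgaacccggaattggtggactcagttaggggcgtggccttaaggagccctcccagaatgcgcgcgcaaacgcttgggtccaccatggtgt
Cox6a1, minus strand, chr5:115348959-115349208: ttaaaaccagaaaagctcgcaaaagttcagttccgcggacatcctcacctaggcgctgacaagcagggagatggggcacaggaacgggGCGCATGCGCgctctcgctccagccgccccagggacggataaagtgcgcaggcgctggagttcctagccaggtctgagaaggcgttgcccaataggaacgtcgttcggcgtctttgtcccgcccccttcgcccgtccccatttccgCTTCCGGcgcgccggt

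Motif letters were searched on both strands in the 300 bases from 250 before to 50 after each start, for the 65 members that RefSeq's promoter table held and for 9574 compared genes. The word GCATGCGC of NRF1, a transcription factor known for driving respiratory genes, was found in 10 members (15.4%) and in 6.10% of all genes. The YY1 word AAGATGGCG was found in 7 members (10.8%) and in 3.70% of all genes. The ETS and GABP word CCGGAAG was found in 24.6% of members and 20.9% of all genes, and the hypoxia-inducible factor (HIF) core ACGTG in 26.2% and 29.6%. Cox6a1 has the NRF1 word on both strands, 160 and 162 bases before its start, as 2 overlapping matches that form 1 palindrome, and an ETS word 16 bases before it. Ndufv1 has the HIF core on both strands about 168 bases before its start, where the 2 matches overlap as CACGTG. None of these words lies in the 250 bases shown for Ndufs8 and Ndufv3. A match is a description of letters and not of binding.

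The members were abundant transcripts. In the IL4 library their median level was 80.3 FPKM (a count per transcript length and library depth, which allows levels of different genes to be set side by side), against 10.7 FPKM for all compared genes, and 92.4% of compared genes lay below the members' median. Complex I had the lowest median transcript level per gene, 57.0 FPKM, from 13.5 for Ndufa11 to 138 for Ndufb8. Complex II had a median of 104 FPKM, from 73.0 for Sdhd to 122 for Sdhc. Complex III had a median of 114 FPKM, from 36.3 for Uqcrq to 158 for Uqcrb. Complexes IV and V had medians of 166 and 165 FPKM. Atp5b, the catalytic beta subunit of the synthase, was highest of all members at 449 FPKM, and Cox8a, a small structural subunit, was highest in complex IV at 339. Ndufa4l2 was at 0 counts in the IL4 library, and Atp5s was the lowest gene of the complex V group at 2.60 FPKM.

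Together the 80 genes held 0.737% of the counts of the IL4 library (exact 95% interval 0.733 to 0.741). The share was 0.711% with fatostatin, 0.775% with betulin, 0.646% with 25-HC, 0.711% with PF429424 and 0.523% with 1,10-Phen. After scaling with TMM factors, which allow for a few strong genes taking up reads, the summed level was 6924 CPM in the IL4 library, 6945 with fatostatin, 7619 with betulin, 6229 with 25-HC, 7355 with PF429424 and 5807 with 1,10-Phen. By these scaled sums the betulin and PF429424 libraries were highest, while by share of counts the IL4 library was above that with PF429424. By either measure the 25-HC and 1,10-Phen libraries were lowest. Gene by gene, 47 of the 80 members had their lowest scaled level in the 1,10-Phen library and 25 in the 25-HC library, while 37 had their highest level in the betulin library and 27 in the PF429424 library. In bulk samples, fewer cells of a type and less RNA per cell cannot be told apart.

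The differences from IL4 alone were broad and small. All 5 compounds are set against the same IL4 library, so their ratios share its errors and are given side by side. With fatostatin the median log2 ratio of the members was 0.00 (all compared genes 0.01), and 37 of 80 were below 0 (background 48.0%). With betulin it was 0.14 (all genes 0.01), and 11 of 80 were below 0 (background 49.1%). With 25-HC it was -0.17 (all genes 0.01), and 63 of 80 were below 0 (background 49.3%). With PF429424 it was 0.13 (all genes 0.02), and 19 of 80 were below 0 (background 47.7%). With 1,10-Phen it was -0.29 (all genes -0.02), and 65 of 80 were below 0 (background 50.9%). The members' quartiles were narrower than those of all genes in each comparison, for example -0.44 to -0.05 against -0.48 to 0.38 with 1,10-Phen.

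**Figure D1:**
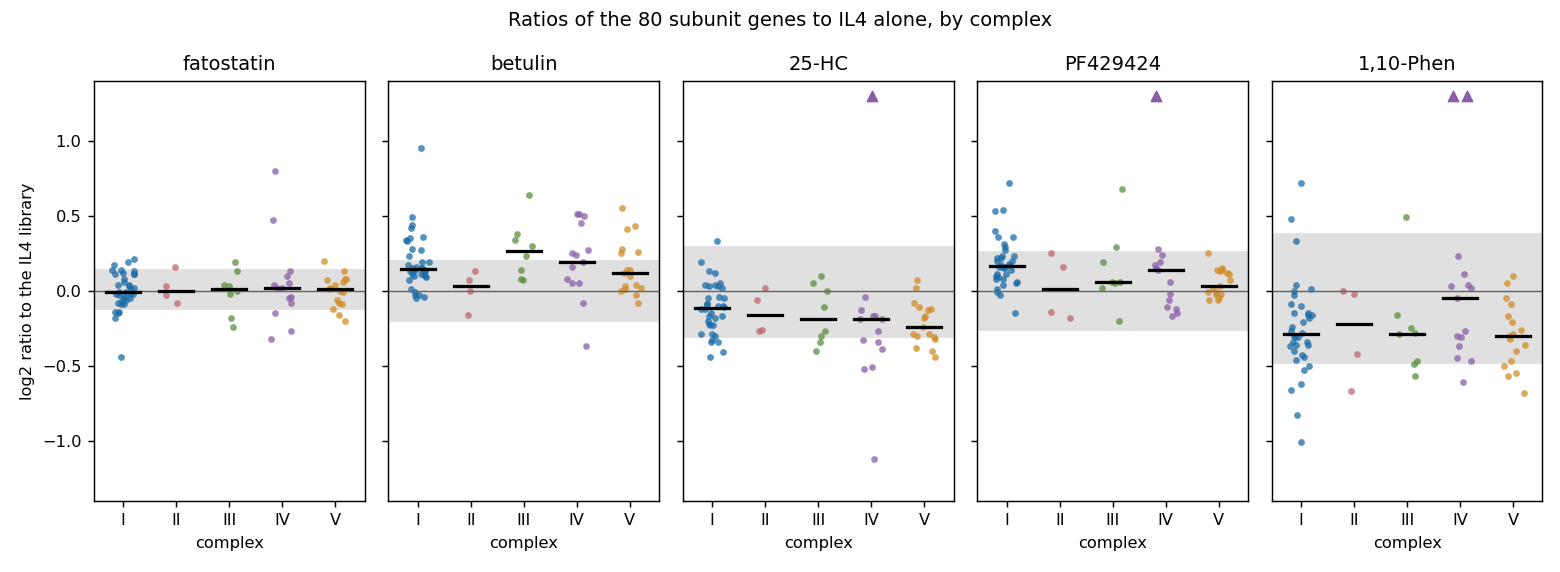
Each panel shows 1 compound, with a point for each subunit gene at its log2 ratio to the IL4 library, grouped by complex; black bars are medians of the complex, grey bands are the quartiles of all compared genes, triangles at the upper edge are ratios above the plotted range, and Ndufa4l2 is drawn only for 1,10-Phen because it had at most 2 counts elsewhere. With 1,10-Phen the medians of complexes I, III and V lie at -0.29, -0.29 and -0.30. That of complex IV lies at -0.05 and counts its scarce isoforms, which raise it.

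Few single members changed by a large amount. A member was called higher or lower when its ratio was at least 1.5-fold and its exact 95% counting interval excluded no change. By this rule no member was lower or higher with fatostatin, where 2.77% and 2.46% of all compared genes were. With betulin none was lower (background 6.33%) and 2 were higher (background 4.98%). With 25-HC 1 was lower (background 12.5%) and 1 was higher (background 9.02%). With PF429424 none was lower (background 11.3%) and 3 were higher (background 7.39%). With 1,10-Phen 7 were lower (background 20.3%) and 3 were higher (background 15.3%). Of these 3, Ndufa4l2 reached the CPM limit in the 1,10-Phen library alone, so its count as higher there follows from that limit. Cox6a2, also among the 3, was under the limit in the IL4 library and entered through compound libraries, which favours calls as higher. Set against 80 members, each of these counts is by TMM scaling a smaller share than that of all genes. The shift described above thus comes, by this scaling, from many ratios of less than 1.5-fold. The counting intervals, which are narrow for such abundant genes, lay wholly below 0 for 54 members with 1,10-Phen (background 37.0%) and 47 with 25-HC (background 31.5%). They lay wholly above 0 for 47 with betulin (background 27.6%) and 38 with PF429424 (background 32.7%). The intervals cover counting error only.

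At a 2-fold limit the members called were fewer still. None was lower or higher with fatostatin (background 1.06% lower and 0.874% higher) or with betulin (2.29% and 1.91%). With 25-HC 1 was lower, Cox7a1, and 1 was higher, Cox6a2 (background 5.69% and 3.27%). With PF429424 none was lower and 1 was higher, Cox6a2 (background 5.63% and 2.49%). With 1,10-Phen 1 was lower, Ndufs8, and 2 were higher, Cox6a2 and Ndufa4l2 (background 11.8% and 7.59%). All but Ndufs8 are scarce isoforms with fewer than 200 counts in every library. Ndufa4l2 entered the set through the 1,10-Phen library alone, so its call there was fixed by the CPM limit. Cox6a2 was under that limit in the IL4 library, so its entry favoured calls as higher.

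**Figure D2:**
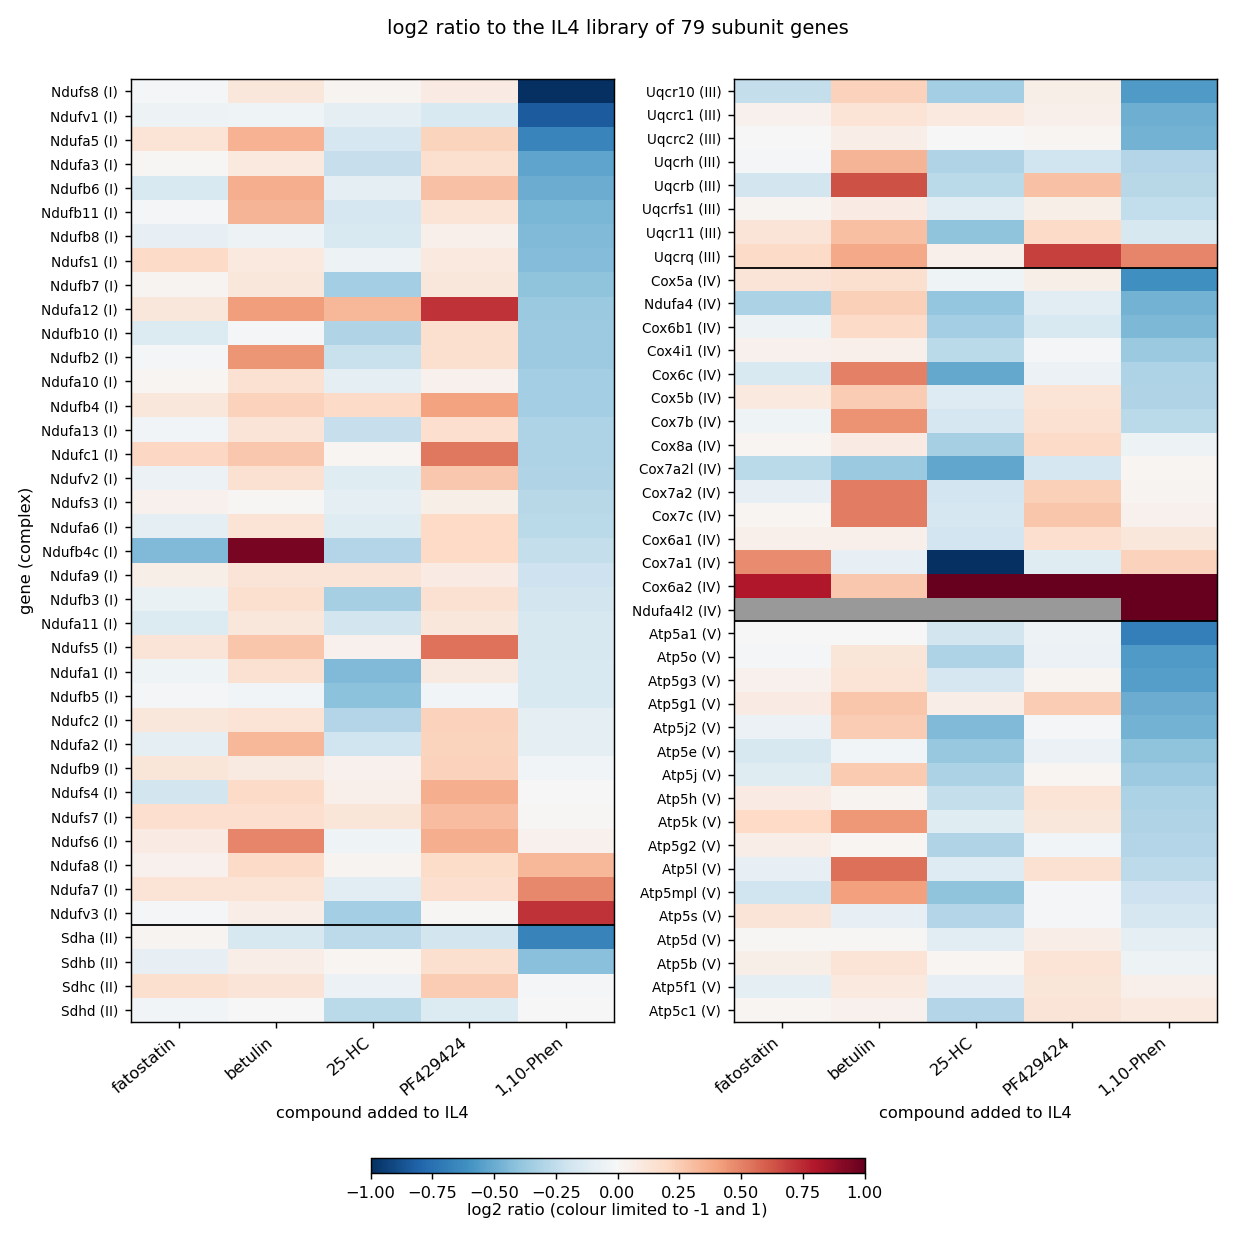
Rows are 79 of the 80 subunit genes with their complex in brackets, ordered within each complex by the ratio in the 1,10-Phen library, columns are the 5 compounds, and colour is the log2 ratio to the IL4 library (blue lower, red higher, limited at -1 and 1; grey, at most 2 counts in both libraries). The 1,10-Phen column runs from Ndufs8 at -1.01 to Ndufv3 at 0.72 within complex I, while the betulin column is mostly red.

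Complex I, the entry point for NADH, had log2 ratios below 0 with 1,10-Phen in 31 of 36 genes (background 50.9%), with a median of -0.29. At the 1.5-fold limit 4 of the 36 were lower (11.1%, background 20.3%) and 1 was higher (2.78%, background 15.3%). Its 7 nuclear-encoded core subunits, which carry the flavin, the iron-sulfur clusters and the quinone site, had a median of -0.43, against -0.24 for the other 29. Ndufs8, an iron-sulfur protein of the core, measured 35.0 scaled CPM in the IL4 library, 34.6 with fatostatin, 37.8 with betulin, 35.7 with 25-HC, 37.1 with PF429424 and 17.3 with 1,10-Phen. The 1,10-Phen library stood apart from the other five, which lay close together, and its log2 ratio was -1.01 (interval -1.21 to -0.83), a 2.02-fold lower level. Ndufv1, the subunit that binds NADH and the flavin, measured 56.0, 54.2, 54.4, 52.3 and 50.3 scaled CPM in the first 5 libraries in the same order and 31.4 with 1,10-Phen (log2 ratio -0.83, interval -0.98 to -0.69). The genes of both proteins lie on chromosome 19, Ndufs8 at 3908863 to 3912774 and Ndufv1 at 4007499 to 4012755 (GRCm38.p6).

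The other core subunits were spread more widely. With 1,10-Phen the log2 ratio was -0.43 for Ndufs1 (interval -0.55 to -0.32), the large iron-sulfur subunit, -0.30 for Ndufv2 and -0.28 for Ndufs3. Ndufs7, which holds the last iron-sulfur cluster before coenzyme Q, was at 0.01 (interval -0.14 to 0.15) and so did not follow Ndufs8. In the other 4 comparisons none of the 7 core subunits passed 1.5-fold (background between 2.46% and 12.5% in either direction). Their medians were -0.01 with fatostatin, 0.10 with betulin, -0.05 with 25-HC and 0.08 with PF429424.

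Among the accessory subunits, which surround the core and are needed for its assembly and stability, Ndufa5 was lower with 1,10-Phen, at 9.37 scaled CPM against 14.9 in the IL4 library (log2 ratio -0.66, interval -0.94 to -0.40). Ndufv3, an accessory subunit beside the NADH-binding arm, went the other way. It measured 41.3 scaled CPM in the IL4 library, 40.8 with fatostatin, 43.5 with betulin, 32.6 with 25-HC, 41.7 with PF429424 and 68.2 with 1,10-Phen. Its log2 ratio was 0.72 with 1,10-Phen (interval 0.60 to 0.85) and -0.34 with 25-HC (interval -0.49 to -0.20), so that the 25-HC library was lowest and the 1,10-Phen library highest. Ndufa7 at 0.48 and Ndufa8 at 0.33 were the next highest complex I genes with 1,10-Phen, below 1.5-fold.

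Other complex I subunits differed most in the betulin and PF429424 libraries. Ndufa12 measured 32.8 scaled CPM in the IL4 library, 35.5 with fatostatin, 44.0 with betulin, 41.4 with 25-HC, 54.0 with PF429424 and 25.4 with 1,10-Phen. It was highest with PF429424 (log2 ratio 0.72, interval 0.58 to 0.86) and lowest with 1,10-Phen (-0.37). Ndufb4c, a copy of the accessory subunit gene Ndufb4, was at 0.95 with betulin (interval 0.69 to 1.22). Reads of these near copies can be split between them and Ndufb4 has counts that are not whole, so the value is uncertain; summed over both genes the log2 ratio was 0.43 with betulin. With 25-HC the lowest complex I gene was Ndufa1, at -0.44 (interval -0.63 to -0.25), and with fatostatin it was Ndufb4c, at -0.44 as well.

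**Figure D3:**
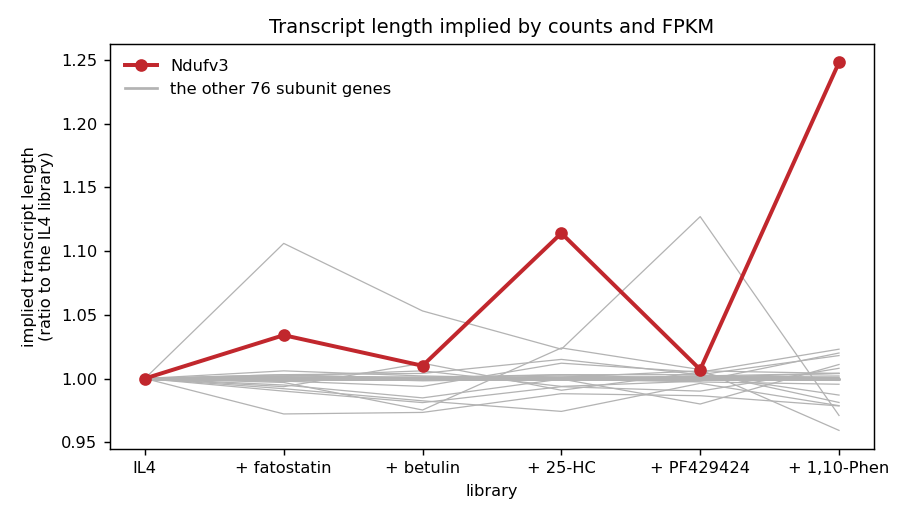
For each library the line shows the transcript length implied by a gene's count and FPKM, as a ratio to its value in the IL4 library, for Ndufv3 and 76 other subunit genes with at least 2 FPKM in all libraries. Ndufv3 stands at 1.11 with 25-HC and 1.25 with 1,10-Phen, and the one other line that differs by over 10% is Atp5s.

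Ndufv3 also differed in the form of its transcript. A gene's count divided by its FPKM gives the mean transcript length used by the quantification, up to the library's depth. For Ndufv3 this implied length was 550 bases in the IL4 library, 569 with fatostatin, 556 with betulin, 613 with 25-HC, 554 with PF429424 and 687 with 1,10-Phen. The deposited tables list 2 transcripts for the gene, of 493 and 1582 bases in GENCODE, so a larger implied length is a larger estimated share of the longer one. Of 77 members with at least 2 FPKM in all libraries, 2 shifted by over 10% in any comparison, Ndufv3 and Atp5s, against 3.83% of 8857 genes. Because longer transcripts give more counts, the ratio per transcript length was smaller with 1,10-Phen, 0.40 on the log2 scale, and -0.50 with 25-HC. How far these estimates separate the forms was not tested.

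Complex II, succinate dehydrogenase, joins the citric acid cycle to the chain. Sdha, its flavoprotein, measured 266 scaled CPM in the IL4 library, 272 with fatostatin, 239 with betulin, 222 with 25-HC, 235 with PF429424 and 167 with 1,10-Phen. The 1,10-Phen library was lowest (log2 ratio -0.67, interval -0.73 to -0.61), and the IL4 and fatostatin libraries were highest. Sdhb, the iron-sulfur subunit, was at -0.42 with 1,10-Phen (interval -0.52 to -0.33). The membrane anchors behaved otherwise: Sdhc was at -0.02 and Sdhd at 0.00 in the same comparison. With 25-HC Sdhd was at -0.27 and Sdha at -0.26, while Sdhb was at 0.02 and Sdhc at -0.06. No complex II gene passed 1.5-fold with fatostatin, betulin, 25-HC or PF429424 (background between 2.46% and 12.5% in either direction). The widest ratios there were those of Sdhd and Sdha with 25-HC and of Sdhc with PF429424 (0.25).

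Complex III, the cytochrome bc1 complex, had its highest median with betulin, at 0.26 with all 8 genes above 0, and was at 0.02 with fatostatin, -0.19 with 25-HC, 0.06 with PF429424 and -0.29 with 1,10-Phen. Uqcrb, a small subunit near the quinone sites, measured 70.4 scaled CPM in the IL4 library, 62.1 with fatostatin, 110 with betulin, 58.5 with 25-HC, 86.3 with PF429424 and 57.8 with 1,10-Phen. Its ratio with betulin was 0.64 (interval 0.55 to 0.73), the highest in that complex. Uqcrq, another small subunit, was at 51.6 scaled CPM in the IL4 library and 82.6 with PF429424 (log2 ratio 0.68, interval 0.57 to 0.79), and it was the one gene of complex III above 0 with 1,10-Phen, at 0.49. Uqcr10 was lowest of complex III with 1,10-Phen, at -0.57 (interval -0.70 to -0.44), and with fatostatin, at -0.24, and Uqcr11 was lowest with 25-HC, at -0.40. Uqcrc1, a large core protein, was at -0.49 with 1,10-Phen and at 0.10 with 25-HC.

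Complex IV, cytochrome c oxidase, had medians of 0.02 with fatostatin, 0.19 with betulin, -0.19 with 25-HC, 0.14 with PF429424 and -0.05 with 1,10-Phen. The last value hides opposite ratios. It also counts the scarce forms Ndufa4l2, Cox6a2 (2.93) and Cox7a1 (0.23), all above 0 with 1,10-Phen, which raise it. Cox5a, a subunit on the matrix side, was at 104 scaled CPM in the IL4 library and 68.6 with 1,10-Phen (log2 ratio -0.61, interval -0.71 to -0.51). Ndufa4 was at -0.47, Cox6b1 at 81.9 against 112 scaled CPM, and Cox4i1, the largest nuclear-encoded subunit, at -0.37. Cox7a2l is known for a part in joining complexes III and IV into supercomplexes, a role that was not measured in these cells. Among genes above 5 CPM it was lowest of complex IV with betulin, at -0.37, and with 25-HC, at -0.52. It stood at 0.02 with 1,10-Phen. Cox7c was highest with betulin, at 0.51 (interval 0.43 to 0.60). Cox6c was at 0.50 with betulin and -0.51 with 25-HC, a range of 1.01 between libraries.

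Several subunits of complex IV exist as a common form and a scarcer form known from muscle, lung, testis or hypoxic cells, and the largest ratios of the whole set were among the scarce forms. Ndufa4l2, the form of Ndufa4 known as a HIF target, had 0 counts in the IL4, fatostatin, betulin and 25-HC libraries, 2 with PF429424 and 71 with 1,10-Phen. Against a floor of 3 counts in the IL4 library it was at least 27.2-fold higher with 1,10-Phen. It nonetheless made up 2.43% of the pair by FPKM there, at 3.63 FPKM beside 146 for Ndufa4. The summed pair was at -0.40.

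Cox6a2, known as the heart and skeletal muscle form, had 13 counts in the IL4 library, 24 with fatostatin, 16 with betulin, 37 with 25-HC, 151 with PF429424 and 98 with 1,10-Phen. The log2 ratio was 3.42 with PF429424 (interval 2.80 to 4.56), 2.93 with 1,10-Phen (2.28 to 4.08) and 1.34 with 25-HC (0.53 to 2.51). The PF429424 and 1,10-Phen libraries lay well above the other four. By FPKM Cox6a2 reached 3.46% of the pair with Cox6a1 in the PF429424 library, from 0.331% in the IL4 library. Its counts were not all whole numbers, so part of its reads were shared out by the quantification. It was under the CPM limit in the IL4 library and entered the set through compound libraries, which favours ratios above 0. The 3 muscle markers in the tables, Acta1, Ckm and Actn3, summed to between 0.410 and 0.911 CPM in every library.

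Cox7a1, known from muscle too, had 30 counts in the IL4 library and 13 with 25-HC (log2 ratio -1.12, interval -2.30 to -0.26), and between 26 and 42 in the other libraries. Below the CPM limit, Cox4i2, the lung form known from hypoxia, had 2 counts in the IL4 library and 14 with 1,10-Phen. The plain ratio of scaled CPM was 8.05 (interval 1.85 to 73.0). With the prior count of 2 used for the log2 ratios it was 4.47. Cox6b2, the testis form, had 17 counts in the IL4 library, 15 with fatostatin, 11 with betulin, 5 with 25-HC, 5 with PF429424 and 1 with 1,10-Phen. By the plain ratio its level in the IL4 library was 14.8 times that with 1,10-Phen (interval 2.32 to 618). With the prior count it was 5.94 times. At these depths each scarce form was a few percent or less of its pair by FPKM, apart from Cox7a1, which was between 2.92% and 8.50% of its pair with Cox7a2.

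**Figure D4:**
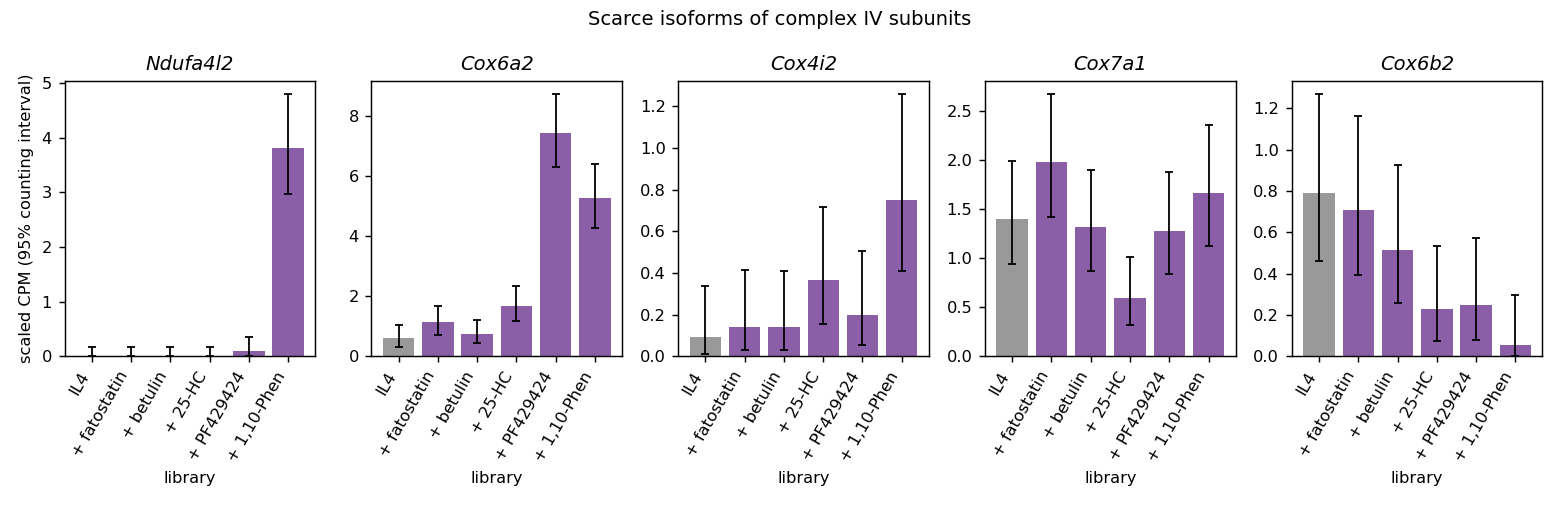
Bars give the scaled CPM of 5 scarce isoforms of complex IV subunits in each library, with exact 95% Poisson intervals that cover counting error only; each panel has its own axis starting at 0. Ndufa4l2 is at 3.80 CPM with 1,10-Phen and at most 0.0985 elsewhere, and Cox6a2 is at 7.43 with PF429424 and 5.25 with 1,10-Phen against 0.605 in the IL4 library.

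Complex V, the ATP synthase, had medians of 0.01 with fatostatin, 0.12 with betulin, -0.24 with 25-HC, 0.03 with PF429424 and -0.30 with 1,10-Phen. The 2 subunits that form the catalytic hexamer differed with 1,10-Phen. Atp5a1, the alpha subunit, measured 606 scaled CPM in the IL4 and fatostatin libraries, 606 with betulin, 533 with 25-HC, 584 with PF429424 and 378 with 1,10-Phen (log2 ratio -0.68, interval -0.72 to -0.64). Atp5b, the beta subunit, measured 791, 827, 875, 804, 874 and 762 scaled CPM in the 6 libraries, and its ratio with 1,10-Phen was -0.05 (interval -0.09 to -0.02). The alpha subunit was thus lower by a wide margin in 1 library, while the beta subunit stayed within a narrow band.

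Of the remaining synthase genes, the gamma subunit Atp5c1 was highest of its complex with 1,10-Phen, at 0.10, and at -0.29 with 25-HC. Atp5o, the subunit that ties the catalytic head to the stalk, was at -0.57 with 1,10-Phen (interval -0.67 to -0.48), and Atp5g1, a gene of the proton-carrying c-ring, at -0.50. With betulin the 5 subunits of the catalytic head had a median of 0.01 and the other 11 subunits 0.25. Atp5l, a small membrane subunit, was at 0.55 (interval 0.48 to 0.62), the highest of the complex. Neither median is corrected for transcript length. In the head Atp5a1 and Atp5b are 2438 and 1875 bases and Atp5e is 384, while Atp5l is 485. Genes at or under 652 bases had a median of 0.21 with betulin. After the length correction described below Atp5l was at 0.37. The part of length in this split was not tested. With 25-HC the lowest was Atp5j2, another membrane subunit, at -0.44 (interval -0.54 to -0.34).

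Most of these genes are short, and short genes as a whole moved in some of these libraries. The members' median implied transcript length was 652 bases, against 2848 for all compared genes. The 293 compared genes at or under 652 bases, 40 of them members, had median log2 ratios of -0.01 with fatostatin, 0.21 with betulin, -0.20 with 25-HC, 0.15 with PF429424 and -0.08 with 1,10-Phen. The shorter 40 members stood at 0.00, 0.25, -0.24, 0.16 and -0.29 in that order, and the longer 40 at 0.00, 0.12, -0.11, 0.09 and -0.26. After the median of genes of like length was taken off, in 20 bins, the members' medians were -0.02, 0.02, -0.09, 0.00 and -0.18. With betulin and PF429424 the members' median thus came to that of other genes of their length. With 1,10-Phen 58 of 80 members were below 0 (background 49.9% after the same correction), the 7 core subunits of complex I stood at -0.47, and 4 members remained at least 1.5-fold lower (background 19.9%): Ndufs8 (-0.89), Ndufv1 (-0.79), Sdha (-0.69) and Atp5a1 (-0.65). Ndufa7, at 0.60, joined Ndufv3, Cox6a2 and Ndufa4l2 among those at least 1.5-fold higher (background 15.6%). The bins do not allow for a shift of length within a gene. Per its own transcript length Ndufv3 was at 0.40, below 1.5-fold.

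**Figure D5:**
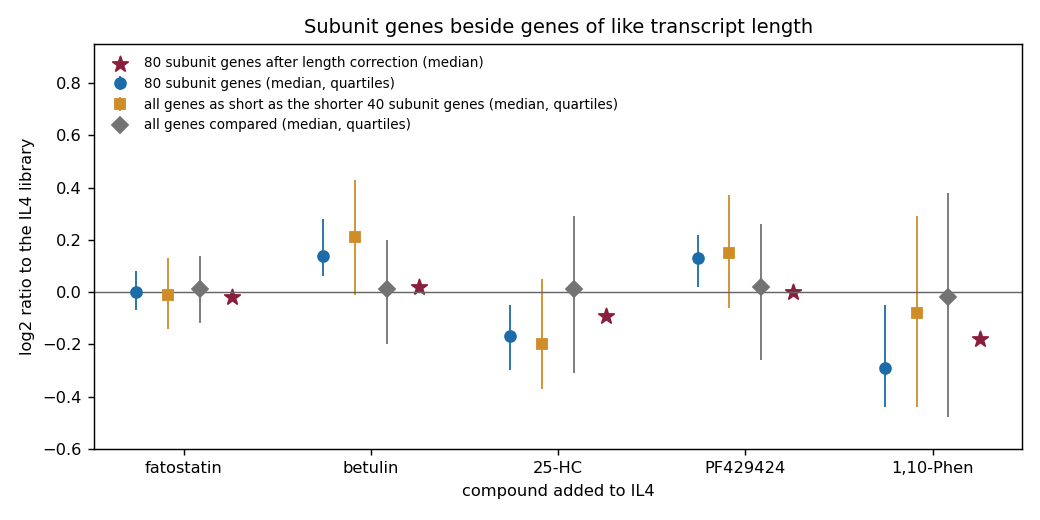
For each compound, points with bars give the median and quartiles of the log2 ratio to the IL4 library for the 80 subunit genes, for the 293 genes at or under 652 bases and for all 11898 compared genes, and stars give the subunit genes after the length correction. The subunit genes lie beside the short genes with betulin (0.14 and 0.21) and 25-HC (-0.17 and -0.20), and below them with 1,10-Phen (-0.29 and -0.08).

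The size of the shift with 1,10-Phen also rests on the scaling. With library totals in place of TMM factors, the median of all compared genes moved to -0.25 in that library and the members' median to -0.53. Of the 80 members, 29 were then at least 1.5-fold lower, a larger share than the 29.3% of all compared genes by the same scaling. The 2 that were higher were a smaller share than the 9.83% of all genes. TMM scaling gave 7 and 3, both smaller shares than among all genes. Relative to the median of all genes the members were lower by either scaling.

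Genes that serve the complexes were described from 12 lists, whose counts are set beside the shares of all compared genes at the same 1.5-fold limit. The lists were not corrected for transcript length. With betulin 13.3% of the 293 compared genes at or under 652 bases were at least 1.5-fold higher, against 4.98% of all genes. Of 4 subunits outside the name rule, all were below 0 with 1,10-Phen, among them the electron carrier cytochrome c (Cycs, -0.43), and all were above 0 with betulin, where Usmg5, a small subunit known from synthase dimers, was at 0.88 (interval 0.77 to 0.99) and was the 1 gene of the 4 past the limit (background 4.98%). Of 15 complex I assembly factors, 3 were at least 1.5-fold lower with 1,10-Phen, where 20.3% of all genes were, and 1 was higher (background 15.3%), with a median of -0.33. Ndufaf2 was at 7.45 scaled CPM in the IL4 library and 2.57 with 1,10-Phen (interval of the log2 ratio -2.03 to -1.06), Ndufaf6 was at -1.17 (interval -1.76 to -0.68) and Ndufaf1 at -0.68, while Ndufaf7 was at 0.77. With PF429424 none of the 15 was lower (background 11.3%) and 2 were higher (background 7.39%), Ndufaf4 and Ndufaf7, both at 0.67.

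Of 6 complex III assembly factors, 1 was lower with 1,10-Phen (16.7%, background 20.3%), Bcs1l, the chaperone that inserts the Rieske protein, at -0.87 (interval -1.19 to -0.58). None was higher (background 15.3%). Of 21 genes listed under complex IV assembly none passed 1.5-fold with 1,10-Phen (background 20.3% lower and 15.3% higher), where their median was 0.02. With betulin 4 were higher (19.0%, background 4.98% of all genes and 13.3% of the short genes). They were Sco2, a copper chaperone, at 0.76, Slirp at 0.70, Cox20 at 0.63 and Cox17, another copper chaperone, at 0.62. Slirp is counted in the list but is an RNA-binding protein rather than an assembly factor. The part of transcript length in these 4 ratios was not tested. Of 4 complex II assembly factors none passed 1.5-fold with any compound (background between 2.46% and 20.3% in either direction). Among 4 genes that assemble or inhibit the synthase, 1 was lower with 1,10-Phen (background 20.3%), the inhibitor Atpif1, at -0.69 (interval -0.81 to -0.58).

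Of 17 iron-sulfur cluster genes, 1 was lower (5.88%, background 20.3%) and 2 were higher (11.8%, background 15.3%) with 1,10-Phen, both smaller shares than among all genes, and the median was -0.12. Fdxr, which reduces the ferredoxins, was at -1.29 (interval -1.80 to -0.85), Isca1, a carrier of clusters, was at 0.70, and Hspa9, the mitochondrial chaperone, was at 1.26 with 1,10-Phen, 1.12 with 25-HC and 1.12 with PF429424. Of 11 coenzyme Q genes, 2 were lower with 1,10-Phen (18.2%, background 20.3%) and none was higher (background 15.3%). Coq8a, an atypical kinase of coenzyme Q synthesis, had 95 counts in the IL4 library, 60 with fatostatin, 54 with betulin, 33 with 25-HC, 24 with PF429424 and 15 with 1,10-Phen, where the log2 ratio was -2.33 (interval -3.35 to -1.67). It was at least 1.5-fold lower in all 5 comparisons, which share the IL4 library. The other was Coq4, at -0.70. Coq8a lies under the limit of 5 CPM for named genes and was chosen after its values were seen. Of 17 genes of mitochondrial gene expression, 2 were lower with 1,10-Phen (11.8%, background 20.3%), Tsfm at -0.78 and Polg2 at -0.89, and none was higher (background 15.3%). Polg, the mitochondrial DNA polymerase, was at -0.77 with 25-HC, -0.77 with PF429424 and -0.64 with betulin. Of 11 supercomplex and cristae genes, 1 was lower with 1,10-Phen (9.09%, background 20.3%), Higd2a, at -0.66, and it was at -0.62 with 25-HC.

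Of 8 measured regulators of mitochondrial biogenesis, 1 was lower (12.5%, background 20.3%) and 2 were higher (25.0%, background 15.3%) with 1,10-Phen. Ppargc1b, which encodes PGC-1beta, measured 29.9 scaled CPM in the IL4 library, 29.4 with fatostatin, 25.7 with betulin, 25.6 with 25-HC, 23.0 with PF429424 and 6.64 with 1,10-Phen. The 1,10-Phen library was far below the others (log2 ratio -2.16, interval -2.46 to -1.89). In the same comparison Yy1 was at 0.88 (interval 0.79 to 0.97), Myc at 0.63, Nrf1, the factor of the word searched above, at 0.51 and Gabpa at -0.01. Of 8 mitophagy and HIF-linked mitochondrial genes, 7 were higher with 1,10-Phen (87.5%, background 15.3%) and none was lower (background 20.3%), with a median ratio of 2.30-fold. Bnip3, a mitophagy receptor, was at 4.94 (interval 4.80 to 5.11), Mxi1, known to restrain mitochondrial mass, at 2.71, and Pdk1, the kinase that closes off pyruvate entry, at 2.15. None of the 8 was higher with fatostatin (background 2.46%), 25-HC (9.02%) or PF429424 (7.39%), shares at which few of 8 genes would be called. With betulin 1, Higd1a, was higher, at 0.60 (background 4.98%).

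The 6 libraries held between 20181396 and 21169667 estimated counts. All 8 macrophage markers were detected, with summed levels of 12660 scaled CPM in the IL4 library, 13770 with fatostatin, 9955 with betulin, 7471 with 25-HC, 11510 with PF429424 and 8537 with 1,10-Phen. The 25-HC and 1,10-Phen libraries, where the members' medians were below 0, were thus lowest in this sum too. Single markers did not all follow the sum. Lyz2 (2602 scaled CPM) and Mrc1 (472) were lowest with 25-HC, but Csf1r was lowest with PF429424 (987). Adgre1 was at 805 with 1,10-Phen, above its level with betulin (587) and PF429424 (479). The 8 neutrophil markers summed to 193 CPM in the IL4 library, 263 with fatostatin, 298 with betulin, 326 with 25-HC, 50.1 with PF429424 and 24.2 with 1,10-Phen, and Ly6g was at 0 in the latter pair of libraries. Stromal markers summed to between 34.2 and 98.9 CPM, and T cell, B cell, dendritic, mast cell and erythroid markers to at most 7.11 each. The part of the macrophage and other cell markers in the subunit ratios was not tested.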

How the data were processed

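RNA of 6 libraries was measured, 1 per treatment. Per gene, the deposited values are an estimated count, or expected count, with no scaling between libraries by the authors, and FPKM, which per the file headers is scaled to length and depth. Per the submitters' processing notes HISAT2, Bowtie2, RSEM 1.2.12 and DESeq2 were used, with no role given; whether counting used strand is likewise not given in the sources used here. Where a gene has an antisense partner, the reads of both cannot be told apart.

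Counts were rounded and scaled with TMM factors over all genes (edgeR 4.0.16, R 4.3.3). Ratios to the IL4 library are log2 ratios of CPM with a prior count of 2, for genes with a CPM of at least 1 in at least 1 library, with exact Clopper-Pearson 95% intervals that cover counting error only. With 1 library per treatment no test was run. Library totals lay between 20181396 and 21169667, so 3 counts, the floor for a gene at 0, were between 0.137 and 0.161 CPM. Counts were not whole for 13 of the 80 members in some library. The intervals and calls were run on simulated counts that held Poisson counting error only, so that run says nothing of variation between cultures. Python 3.11.15, SciPy 1.17.1 and matplotlib 3.10.9 served the other steps.

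The members and all gene lists were chosen with earlier results of these data known. Named members are, per comparison, those past 2-fold, the highest and lowest of each complex with a CPM of at least 5, both forms of each isoform pair, the complex I core, complex II, the highest and lowest FPKM of each complex and the 2 largest ratios of each list; those past 1.5-fold and a few others (Ndufa7, Ndufa8, Uqcrc1, Atp5o, Cox6c, Atp5g1, Pdk1, Nrf1, Gabpa and Polg2 among them) were named after their values were seen, and some that the rule names are left out. Alternatives were library totals, size factors of DESeq2 1.42.0, the set with no filter or with a limit of 5 CPM, a prior count of 0.5 or of 10, log2(FPKM + 1), the median of the 6 libraries as reference, a length correction in 20 bins, whole counts only and the set without tissue-restricted isoforms. Positions and promoters are from RefSeq on GRCm38.p6, where all 80 members had a position and 65 a promoter; transcript lengths are from GENCODE M21. Implied length is the count divided by FPKM and library size, set to a common scale. Subunits encoded in the mitochondrion itself are not analysed here. The values of 1 member are not reported here, although it is counted in the medians and counts.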

Additional observations from a re-analysis of the deposited data

How the results depend on the processing

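The members' median log2 ratio ranged over the 11 alternatives from -0.05 to 0.02 with fatostatin, 0.02 to 0.14 with betulin, -0.21 to -0.09 with 25-HC, 0.00 to 0.14 with PF429424 and -0.53 to -0.18 with 1,10-Phen, and no called value changed sign. With library totals the median was 0.00 for PF429424 and -0.53 for 1,10-Phen, and 1 member was at least 1.5-fold higher with betulin and 1 with PF429424. By the same scaling 29 were lower with 1,10-Phen (background 29.3%). With log2(FPKM + 1), which holds no TMM factor, these values were 0.00, -0.52, 1, 1 and 27, with no share of all genes at hand for that setting. With the length correction the median was 0.02 for betulin and 0.00 for PF429424, 1 member was higher with betulin and 1 with PF429424, and 4 were lower with 1,10-Phen. With no filter, which adds 3 genes, 2 members were lower with 25-HC and 1 with PF429424, and with a CPM of at least 5 the count with 25-HC was 0. With the median of the 6 libraries as reference 1 member was lower and 4 were higher with betulin, and 0 were higher with 25-HC. With whole counts only, 1 member was higher with betulin and 0 with 25-HC. Without the tissue-restricted isoforms 0 were lower and 0 higher with 25-HC, and 1 was higher with 1,10-Phen, so those calls rest on scarce transcripts. DESeq2 size factors and prior counts of 0.5 and 10 left all 15 medians and counts within 1.5 times or the counting error. Among values of single genes, 94 moved beyond their counting error and 923 did not.

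No paired analysis was possible because each treatment has 1 library, and for the same reason no library could be left out of a group. Depth limits the scarce isoforms most: 3 counts are about 0.14 CPM in the IL4 library. The difference between cultures of 1 treatment is not known from these data, so a shift of the size described for the members has no error of its own.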
